A study of Mus musculus with 3 samples.

Results

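Aspscr1 and 7 further genes of insulin-driven glucose uptake were examined for binding of the zinc finger protein ZFP410 in mouse brown preadipocytes. The 8 genes, of 21887 protein-coding genes on placed chromosomes, were Aspscr1, Slc2a4, Slc2a1, Insr, Irs1, Irs2, Akt2 and Tbc1d4. The set was chosen by a measured value, since Aspscr1 was picked for the strength of a peak inside it, and the other genes were added for their place in the same pathway. Every listed peak inside one of these genes or within 10 kb of it was taken. The peaks come from CUT&Tag, in which an antibody directs a transposase to chromatin and the enzyme tags the DNA around the bound protein.

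There were 3 libraries, 1 per group, all of brown preadipocytes sorted as Lin-, CD29+, CD34+, Sca1+ cells from male wild-type C57BL/6 mice, whose age is not given in the sources used here. One library used a ZFP410 antibody on untreated cells. Another used the same antibody on cells held 3 days in medium that induces brown adipocyte differentiation, called induced here. A further library used control IgG on untreated cells, so induced cells have no IgG value here. Neither an allele nor a transgene is named for any group. With 1 library each, the differences given compare libraries, have no replicate check and carry no p-value. No expression was measured, so the cell label was not checked against markers and nothing is known here of the RNA level of any gene named.

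The authors' lists hold 3256 untreated, 7475 induced and 480 IgG peaks, with a median of 4, 7 and 4 DNA fragments over the summit, the highest point of a peak. The fold is the authors' value for a summit over its local background. Fragments and backgrounds were worked out from the listed fold and p. Enrichment here means the summit fragments divided by that library's genome-wide background, which was 0.110, 0.246 and 0.0231 fragments. A ratio between libraries divides their enrichments, and every interval covers counting error only. The number of reads is unknown, and the weakest peaks listed at the genome background held 3, 4 and 2 fragments.

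Insulin raises glucose uptake in fat and muscle by moving the transporter GLUT4, encoded by Slc2a4, from stores inside the cell to its surface. The signal runs from the insulin receptor (Insr) through the adaptors IRS1 and IRS2 to the kinase AKT2, which phosphorylates the Rab GTPase-activating protein TBC1D4, also called AS160. ASPSCR1, better known here as TUG, holds GLUT4 vesicles back in unstimulated cells and is cleaved when insulin acts, while GLUT1, encoded by Slc2a1, serves basal uptake. Brown fat takes up much glucose when it makes heat, and this route is one of those it uses.

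ZFP410 peaks were found at Aspscr1 in both ZFP410 lists and near Tbc1d4 in the untreated list, and at none of the other 6 genes. In the untreated list 2 of the 8 genes had a peak inside or within 10 kb, where 11.1% of all coding genes had one. In the induced list Aspscr1 alone had one (1 of 8), where 21.3% of coding genes did. Aspscr1 was chosen for such a peak, so that 1 was fixed in advance. Aspscr1 had a peak in both lists (7.66% of coding genes did) and Tbc1d4 in the untreated list alone (3.45%). In a set of 8 genes these counts are too small to set the group apart from its background. The IgG list had 0 at the 8 genes, against 0.694% of coding genes (0.0366% by a summit within 1 kb of a gene end), and its nearest summit to any of them was 457014 bp away, from Akt2. Longer genes hold more peaks: among coding genes that span at least 100 kb, as Insr and Tbc1d4 do, the shares were 21.5% untreated and 39.7% induced.

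Aspscr1 (NCBI gene 68938) spans 36475 bp on the plus strand of chromosome 11, from 120672973 to 120709447 (mm10). It held 3 induced peaks and 1 untreated peak, all with their summits inside the gene. At least 3 induced peaks inside or within 10 kb were found at 1.53% of coding genes, and at 1.1% of those spanning 10 to 50 kb. Counted from the first base of the gene, the induced summits lay at 256, 9675 and 25139 bp and the untreated one at 25233 bp. The first lies at the start of the gene, the second well inside it, and the third coincides with the untreated peak. Exons and introns were not analysed here, so none of these positions is assigned to one.

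The weak induced peak at the start of the gene (chr11:120672869-120673309) covered the first of the 3 start sites that RefSeq lists for Aspscr1 and ended short of the second. Its summit lay 256 bp past the first start and 126 bp before the second. The 250 bases before each of these starts (RefSeq, GRCm38.p6, plus strand, chr11:120672723-120672972 and chr11:120673105-120673354) are shown because this is the only peak at a start site among the 8 genes. Capitals mark the bases inside the peak.

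Aspscr1 start 1: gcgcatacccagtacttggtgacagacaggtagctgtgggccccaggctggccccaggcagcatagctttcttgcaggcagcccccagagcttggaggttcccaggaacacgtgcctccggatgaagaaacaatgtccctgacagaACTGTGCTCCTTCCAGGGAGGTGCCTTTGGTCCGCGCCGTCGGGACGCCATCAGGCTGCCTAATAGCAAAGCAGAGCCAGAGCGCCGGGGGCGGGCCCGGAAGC

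Aspscr1 start 2: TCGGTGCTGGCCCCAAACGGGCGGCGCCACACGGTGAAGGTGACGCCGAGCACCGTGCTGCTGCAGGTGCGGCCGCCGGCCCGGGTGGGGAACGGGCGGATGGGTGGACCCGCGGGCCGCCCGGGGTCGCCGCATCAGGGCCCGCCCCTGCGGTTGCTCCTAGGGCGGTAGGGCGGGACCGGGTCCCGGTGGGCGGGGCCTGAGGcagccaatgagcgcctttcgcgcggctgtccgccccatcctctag

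The peak held 6 summit fragments, a fold of 5.62 over the local background, and 921 of the 7475 induced peaks had the same fold. Had enrichment been the same, the untreated library would hold about 2.68 there, under the 3 of the weakest untreated peak at the genome background. A difference between the libraries was not detectable here at this depth. The 300-base window of the second start, 250 bases before to 50 after, was 75.3% GC with 37 CpG dinucleotides, and that of the first was 65.3% GC with 20. Over all 21263 such windows of coding genes the medians were 56.3% and 13. The letters GGGCGG, a GC box, occurred 10 times on both strands together in the second window, overlapping matches counted, and 0.0705% of all windows held as many. That motif was searched after the sequence had been seen, and a match is a description of the letters only.

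The strong induced peak inside Aspscr1 is the value for which the gene was chosen, so it is described without a test. It ran from 120682433 to 120683003, 571 bp in all, with its summit 9675, 9293 and 5987 bp past the 3 start sites. It held 42 summit fragments at a local background equal to that of the whole genome, or 171 times that background (95% counting interval 123 to 231). The authors' fold was 34.5 and its −log10 q 73.5, which ranked it 33 of 7475 by fold. No untreated peak overlapped it, the nearest untreated summit being 15558 bp away, and the nearest IgG summit was 4051552 bp from the gene.

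An induced peak of at least this fold lay inside or within 10 kb of 27 coding genes. All 32 induced peaks of higher fold overlapped an untreated peak. The Aspscr1 peak thus led the 5938 peaks of the induced list alone, gene ends included, as well as the 4751 on placed chromosomes with a summit over 1 kb from any gene end. The peaks just above it in the list were near Adcy10 and Naaa (fold 35.3 each) and the next below was near Orai2 (34.3), all of them shared with the untreated list. Within the 4751, the median peak held 6 fragments. The next by fold lay near Tmem254b with 26 fragments and a fold of 21.7, then near Clstn3 (28 fragments, 21.6) and inside Aff3 (29, 21.4). Peaks nearest to Dlg5 and Incenp came after these at 25 fragments each, and all 5 held fewer fragments than the one in Aspscr1. Ranked by summit fragments in place of fold, however, the Aspscr1 peak took place 15 of the 4751, since peaks over a raised local background can hold more fragments at a lower fold.

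**Figure D1:**
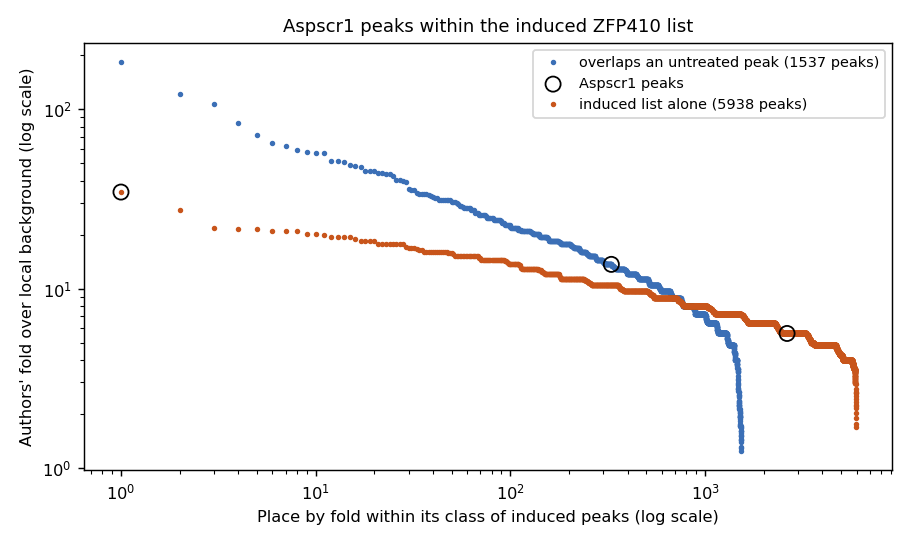
The authors' fold of each induced ZFP410 peak (y axis, log scale) against its place within its class (x axis, log scale), blue for 1537 peaks that overlap an untreated peak and orange for 5938 that do not. Circles mark the 3 Aspscr1 peaks: the one of fold 34.5 heads the orange class, and those of fold 13.6 and 5.62 lie lower in the blue and the orange class.

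With the same enrichment, about 18.7 fragments belong at the strong site in the untreated library, where peaks were listed from 3 fragments upward at the genome background. A peak had also to reach a width of 126 bp, the narrowest in that list. The same enrichment gives 3.93 fragments in the IgG library, and the weakest IgG peak at the genome background held 2. These numbers rest on the value by which the peak was picked, and the extreme of a list is likely to lie above its true level, so they describe the site and test nothing.

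The remaining Aspscr1 site, 11335 bp before the last base by its induced summit, was listed in both libraries. The untreated peak (chr11:120698034-120698216) held 11 fragments, 100 times the genome background (interval 50 to 179). The induced peak (chr11:120697807-120698256) held 44, or 179 times (130 to 240). Summits were 94 bp apart. Enrichment in the induced library was 1.79-fold that of the untreated one (exact binomial 95% interval 0.907 to 3.83), a difference within counting error. With an inferred relative depth of the libraries as the scale the ratio was 1.99 (1.01 to 4.27), so whether the interval includes 1 depends on the scale. Of the 1553 pairs of overlapping untreated and induced peaks, 7.53% had a higher ratio, and their median ratio was 0.837.

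The local background that the caller used at this shared site was 9.34 times the genome background in both lists, against 1.0 times at the strong site. Equal multiples would follow if both lists were called with 1 control, which the sources used here do not state, so they do not count as separate measurements. Both sites reached almost the same enrichment over the genome in the induced library (171 and 179 times), yet the authors' fold was 34.5 at the strong site and 13.6 at the shared one. The fold is taken over the local background, so these folds differ by construction. That background was 0.246 fragments at the strong site and 2.30 at the shared one in the induced list. What raised it at the shared site was not tested.

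**Figure D2:**
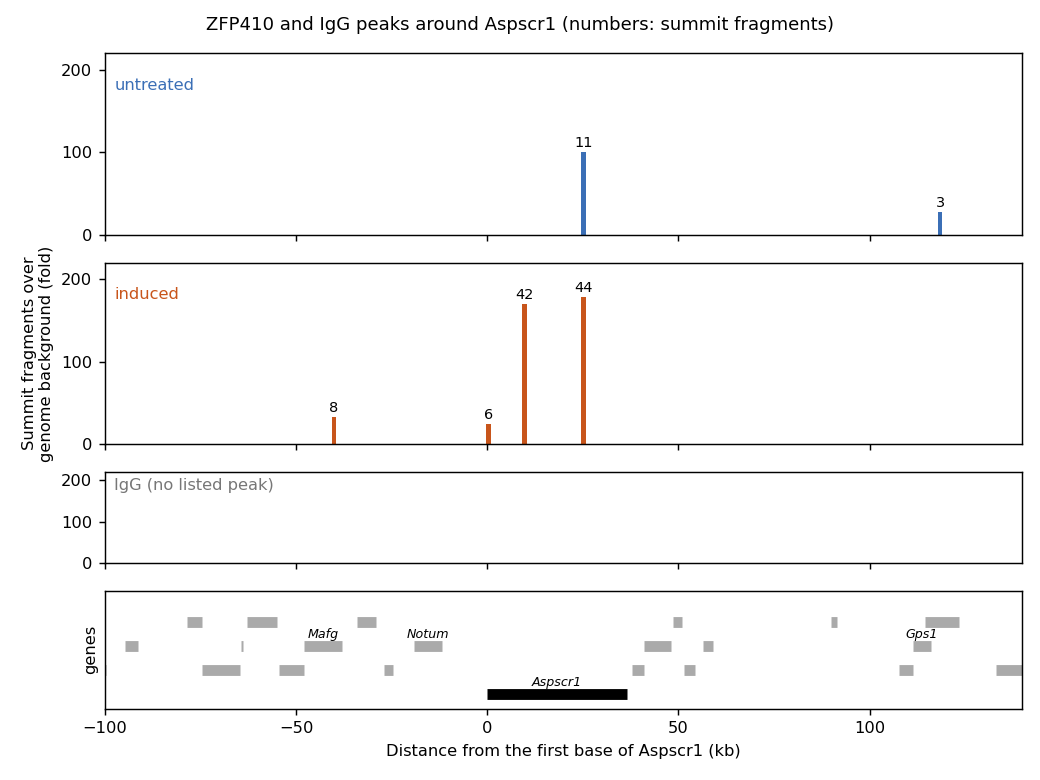
Summit fragments over the genome background of each library (y axis, fold) for every listed peak around Aspscr1, against distance from its first base (x axis, kb), with genes as bars below and fragment numbers above the bars. The peak of 42 fragments at 9675 bp appears in the induced panel only, the site near 25 kb appears in both ZFP410 panels, and the IgG panel is empty.

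Of the 22 coding genes within 100 kb, itself included, 2 had an induced summit within 1 kb of a gene end, Aspscr1 and Fasn, the gene of fatty acid synthase, and 0 had an untreated one, where 8.43% and 3.73% of all coding genes did. A peak inside or within 10 kb was listed for 6 of the 22 in the induced and 5 in the untreated list (21.3% and 11.1% of coding genes), so the neighbourhood is not set apart by these counts. Within 100 kb of the gene 1 further induced peak, of 8 fragments, lay at -40082 bp from the first base, nearest to Mafg. A further untreated peak there, of 3 fragments, lay 118453 bp above the first base, nearest to Gps1. That induced peak was counted for Sirt7, Mafg and Pycr1, and that untreated peak for Rfng, Gps1 and Dus1l. Genes that share a peak are not separate observations. Cenpx, 1494 bp past the end of Aspscr1, and Notum, 11780 bp before its start, had no peak inside or within 10 kb in either list.

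Tbc1d4, on the minus strand of chromosome 14 (101442360 to 101609281), had 1 untreated peak and no induced one within 10 kb. The untreated peak (chr14:101433753-101433969) lay outside the gene, 8502 bp beyond its lower end and thus past its 3′ end. It held 4 fragments, 36.4 times the genome background (9.92 to 93.2), a fold of 4.50 shared with 749 peaks of that list in all. The same enrichment gives 8.96 fragments in the induced library, where the weakest listed peak at the genome background held 4. The lower end of the untreated interval, 9.92 times, is under the 16.2 times of that weakest induced peak. The lack of an induced peak thus does not show a difference between the libraries. The nearest induced summit stood 88947 bp from the other end of Tbc1d4, by Uchl3. It was a shared site, with 5 fragments in the untreated and 15 in the induced library and a ratio of 1.34 (0.463 to 4.71).

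The transporters themselves had no peak within 10 kb. Slc2a4, encoding GLUT4 (chromosome 11, 69942286 to 69948216), had its nearest summits close to other genes. In the untreated list it was a peak of 5 fragments 28109 bp away near an end of Gps2, and in the induced list one of 17 fragments 20884 bp away near an end of Eif5a, over a local background 5.60 times that of the genome. Around Slc2a1 (chromosome 4, 119108745 to 119137330) the nearest summits were 284965 bp off in the untreated list and 166662 bp off in the induced list, with 4 and 5 fragments.

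The receptor and its adaptors were likewise without peaks. Insr (chromosome 8, 3150922 to 3279649) had its nearest summit 236303 bp away in the untreated and 236266 bp away in the induced list, which was the same site at Pnpla6. That site held 10 and 24 fragments, a ratio of 1.07 (0.494 to 2.51). Irs1 (chromosome 1, 82233105 to 82291439) was the most isolated, with summits no nearer than 489465 and 433678 bp. Irs2 (chromosome 8, 10984681 to 11008929) had an untreated summit 255160 bp away. It also had an induced one of 23 fragments 55829 bp beyond its lower end, which is its 3′ end (chr8:10928673-10928882). No coding gene end was closer to that peak than the end of Irs2, and its local background was 18.2 times the genome background, which left a fold of 4.38.

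Akt2, the AKT isoform that acts on GLUT4 traffic (chromosome 7, 27591552 to 27640826), had its nearest summits at 116828 bp untreated and 48523 bp induced, with 5 fragments each. For the 6 genes without a peak the data set a limit. A site at the genome background was listed from 27.3 times that background upward in the untreated library and from 16.2 times in the induced one, and weaker binding would not appear. With a window of 100 kb, added after the data had been seen, 3 of the 8 genes had an untreated peak (34.9% of coding genes) and 5 an induced one (54.5%), with 0 for IgG (2.96%). Slc2a4 joined Aspscr1 and Tbc1d4 in the untreated list, and Slc2a4, Akt2, Irs2 and Tbc1d4 joined Aspscr1 in the induced one.

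**Figure D3:**
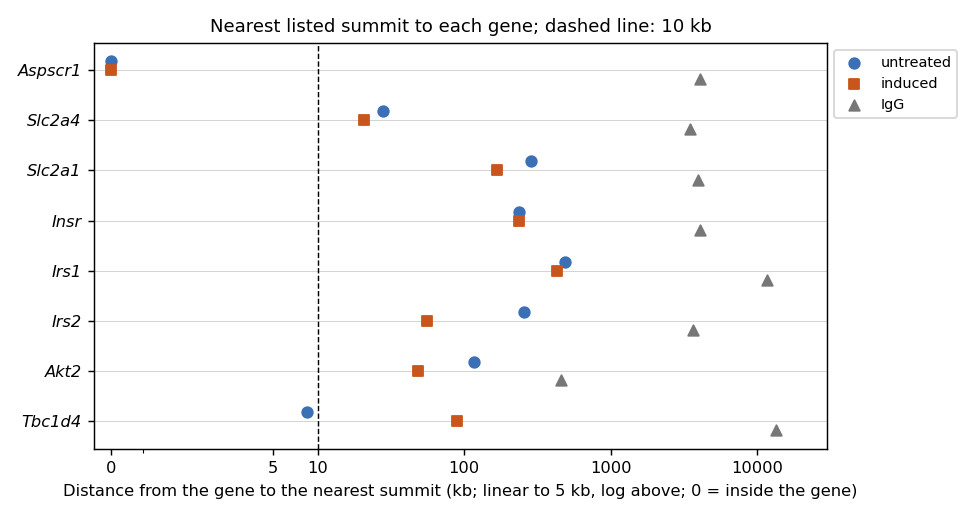
Distance from each of the 8 genes to the nearest listed summit (x axis, kb, linear to 5 and log above, 0 for a summit inside the gene), for the untreated, induced and IgG lists. Aspscr1 holds summits of both ZFP410 lists, Tbc1d4 has an untreated one 8502 bp away, and every other point lies beyond the dashed line at 10 kb.

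Promoter windows were found for 6 of the 8 genes, 11 windows in all, and not for Slc2a4 and Insr. The letters CCCATAA, part of the DNA sequence that ZFP410 binds in other cells, were in 0 of these windows on either strand, and in 2.41% of all 21263 windows. Apart from the 2 Aspscr1 windows none overlapped a ZFP410 peak. The sequence under the strong Aspscr1 peak was not analysed here.

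Beyond the 8 genes, 60 genes of insulin signalling and GLUT4 traffic were counted in the same way. In the untreated list 13 of 60 (21.7%) had a peak inside or within 10 kb and in the induced list 23 of 60 (38.3%), against the 11.1% and 21.3% of coding genes. IgG had 0. These genes are long, with a median span of 49348 bp against 17169 bp for all coding genes, and longer genes have peaks more often. Of coding genes spanning 10 to 50 kb, 11% had an untreated and 21.6% an induced peak, and of those spanning 50 to 100 kb, 14.9% and 28.0% did. Both lists had a peak at 11 of the 60 (7.66% of coding genes). The induced list alone had one at 12 (13.7%) and the untreated list alone at 2 (3.45%). Neither list had one at 35 of the 60. The rest had a peak in at least 1 list, where 24.8% of coding genes did. A summit within 1 kb of a gene end, a narrower measure, was found at 2 genes untreated (3.33%, background 3.73%) and 9 induced (15.0%, background 8.43%), or 10 in either list (background 9.76%).

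The steps in which Rab and other small GTPases and motors move GLUT4 vesicles had 6 of 11 genes with an induced peak and 2 with an untreated one, against 21.3% and 11.1% of coding genes. Gene-end summits were found at 4 of the 11 in the induced list and 0 in the untreated list, against 8.43% and 3.73% of coding genes. Both induced counts are the highest shares among 6 lists of 8 to 15 genes, and no test was made of them. Rab10 and Rab8a, GTPases that TBC1D4 inactivates, had 6 and 8 fragments at 29 and 193 bp from a start site. The Rab8a peak lay over a local background 5.60 times that of the genome. Its fold of 3.78 ranked 7206 of 7475, below the 5.62 at Rab10. Ralgapa2, a subunit of the GTPase-activating complex for RalA, had 11 at 174 bp. Rhoq, encoding the GTPase TC10, had 5 fragments 446 bp before its start. Had enrichment been the same, the untreated library would hold between 2.23 and 4.91 fragments at these 4 sites. The weakest untreated peak at the genome background held 3, a floor that does not apply over the raised background at Rab8a. Depth thus limits any comparison at these sites. Rab8a also had an induced peak of 17 fragments 8978 bp below it, but that summit was nearer to Tpm4, at 920 bp. Tbc1d1, a relative of Tbc1d4, and Myo5a, a myosin gene, had peaks of both lists inside them at different places, with 4 and 8 fragments untreated and induced in Tbc1d1 and 3 and 4 in Myo5a. The untreated Myo5a summit was 125 bp from a listed start site, though 1532 bp from the end of the gene model.

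Rab10 is shown because its product is the Rab step on which TBC1D4 acts in fat cells, and Lnpep because it had a start-site peak in both lists. The 250 bases before each start are on the minus strand of GRCm38.p6, chr12:3309970-3310219 for Rab10 and chr17:17624490-17624739 for Lnpep, with capitals for the bases inside the induced peak.

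Rab10: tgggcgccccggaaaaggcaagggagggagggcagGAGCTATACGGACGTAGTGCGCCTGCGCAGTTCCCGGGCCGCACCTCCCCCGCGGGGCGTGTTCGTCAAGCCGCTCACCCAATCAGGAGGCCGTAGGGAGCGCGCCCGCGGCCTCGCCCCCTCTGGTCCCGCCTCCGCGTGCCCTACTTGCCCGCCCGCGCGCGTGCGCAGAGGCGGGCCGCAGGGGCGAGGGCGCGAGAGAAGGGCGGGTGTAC

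Lnpep: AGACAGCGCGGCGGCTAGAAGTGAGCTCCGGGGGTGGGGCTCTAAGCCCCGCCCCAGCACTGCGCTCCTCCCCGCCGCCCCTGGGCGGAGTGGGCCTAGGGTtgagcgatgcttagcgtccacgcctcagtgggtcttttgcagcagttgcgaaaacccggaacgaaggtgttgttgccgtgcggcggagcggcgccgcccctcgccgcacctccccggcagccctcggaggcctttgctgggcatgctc

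Lnpep encodes IRAP, an aminopeptidase that travels with GLUT4 and binds TUG. Its summit lay 136 bp before the start in the untreated list, with 5 fragments, and 193 bp before it in the induced list, with 11. The ratio of enrichment was 0.982 (0.315 to 3.61), so no difference was detectable. Of the 8 genes for vesicle cargo and TUG partners it was the only one with a peak in both lists, as 7.66% of coding genes had. Golga3 and Lrp1 had induced peaks alone, with 11 and 6 fragments, and the Golga3 peak lay outside the gene, 34 bp from an end of Ankle2. Usp25, whose product cleaves TUG, had none.

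Vesicle docking and fusion genes had 3 of 8 members with an induced peak and 2 with an untreated one. Of all coding genes 21.3% and 11.1% did, and a list this small is not set apart by such counts. The strongest site was 2434 and 2518 bp past the last base of Vamp2, the gene of the vesicle SNARE that pairs with syntaxin 4. It held 22 fragments untreated and 60 induced, and the ratio of 1.22 (0.736 to 2.08) was within counting error, at a local background 4.67 times that of the genome in both lists, again equal. Its summits were 293 and 209 bp from an end of the clock gene Per1 and so nearer to Per1 than to Vamp2. Snap23, encoding a target-membrane SNARE, had 6 induced fragments 103 bp before its start. Exoc4, a subunit of the exocyst, had peaks at different places in the lists, 5 fragments untreated and 8 induced.

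Genes next to the receptor had 4 of 15 members with an untreated peak and 5 with an induced one. The shares of all coding genes were 11.1% and 21.3%, and the counts were not tested against them. A site inside Pik3ca, the gene of a catalytic PI3-kinase subunit, was the clearest (chr3:32409072-32409320 untreated). It held 10 fragments untreated and 7 induced, giving a ratio of 0.312 (0.101 to 0.909), lower in the induced library. On the depth scale the ratio was 0.348 (0.113 to 1.01), and the interval then included 1. Ratios were computed at 5 shared sites of the 8 and the 60 genes, and at the shared sites nearest to Insr and Tbc1d4. No allowance was made for their number. Gab1, encoding a docking protein, had an induced summit of 4 fragments 383 bp from a start site, and Igf1r held 4 untreated and 8 induced fragments at separate places. Pik3r2 had an untreated peak of 4 fragments that was nearer to Mpv17l2, at 149 bp.

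Genes that restrain insulin signalling had 2 of 10 members with an untreated peak and 3 with an induced one. Among all coding genes 11.1% and 21.3% did, so these few genes are not set apart. Socs3, encoding a cytokine-induced inhibitor, had 11 induced fragments 320 bp from its start site. For Phlpp1, an AKT phosphatase gene, an untreated peak of 3 fragments lay 437 bp past its last base, and the induced summit there was 6774 bp further on. Inside Ptpn1 an untreated peak held 3 fragments. The Socs3 enrichment corresponds to 4.91 fragments in the untreated library. The lowest listed number there, 3, applies at the genome background, and the induced Socs3 peak lay over 1.40 times that background. Depth thus limits the comparison.

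Among other transporters and the hexokinases that trap glucose, 2 of 8 had an untreated and 3 an induced peak. The shares of all coding genes were 11.1% and 21.3%, and these counts are too small to differ clearly. Hk2, the insulin-regulated hexokinase gene of fat and muscle, had 3 induced peaks and 0 untreated. At least 3 induced peaks were found at 1.53% of coding genes, and at 1.1% of those spanning 10 to 50 kb, as Hk2 does. The Hk2 peak 42 bp from its start held 6 fragments. Those inside the gene held 10 and 11 over backgrounds of 3.30 and 2.90 times that of the genome. At equal enrichment the untreated library would hold about 2.68 fragments at the start, and 4.46 and 4.91 inside the gene. The lowest listed number there, 3, applies at the genome background only, so depth limits this comparison. Hk1 shared a site with 4 and 7 fragments, and its ratio was 0.781 (0.199 to 3.64).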

How the data were processed

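CUT&Tag peak lists of 3 libraries were used, 1 per group by the sample titles. The submitters' processing notes name mm10, MACS2 2.1.1, Bowtie2 2.2.6 and Picard. The deposited peak names carry a q threshold of 0.1. The treatment of duplicates and the caller's control are not stated in the sources used here. Per peak, the authors' lists give a score (10 times −log10 q), a fold ratio over the local background, the −log10 of p and q, and the summit offset. In the deposited lists these describe a peak within its own library and were not compared between lists.

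MACS2's fold is summit fragments plus 1 over background plus 1, and its p a Poisson tail of the same pair. Solving both (scipy 1.17.1, tolerance 0.001 in −log10 p) returned fragments and background for 3255 of 3256 untreated, 7474 of 7475 induced and 480 of 480 IgG peaks. The step was tested on simulated data. Genome backgrounds were 0.110, 0.246 and 0.0231 fragments. Their induced to untreated ratio, 2.24, scaled enrichment ratios, and relative depth, 2.01, was the alternative. That relative depth was not measured. It was inferred from the steps between listed local backgrounds and assumes 1 control for both ZFP410 lists. Depth in reads is unknown.

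Genes came from RefSeq (GRCm38.p6, the coordinates of mm10) and all 68 symbols matched 1 coding gene each. Peaks overlapped from 1 bp. Intervals are exact (Poisson or binomial, 95%) and cover counting error only. Named genes were the 8, pathway genes with a gene-end summit, up to 3 further per list by fold, and the 5 induced-only peaks next by fold. Some pathway genes enter the counts but are not reported here by name. The members and lists were chosen with earlier results of these data known. No paired analysis was possible because each group has 1 library.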

Additional observations from a re-analysis of the deposited data

How the results depend on the processing

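The number of the 8 genes with a peak was 1 in the induced list under every setting planned, and 0 in IgG under all settings. By the planned settings 12.6% to 26.9% of coding genes had an induced peak, and by all settings 0.142% to 2.96% an IgG peak. The 1 induced gene was Aspscr1, chosen for its strong induced peak, so under these settings the count could not fall to 0. In the untreated list the count fell from 2 to 1 inside the gene only, where 6.82% of coding genes had a peak. It was also 1 within 5 kb (9.35%) and at a fold of at least 5 (5.62%). A −log10 q of at least 5 left 0 (3.35%). Within 100 kb, a setting added after the data were seen, the induced count was 5, where 54.5% of coding genes had a peak. Of the 60 pathway genes, the untreated 13 became 2 at a −log10 q of at least 5 (3.35% of coding genes). They became 4 at a fold of at least 5 (5.62%) and 34 within 100 kb (34.9%). The induced 23 became 15 at a −log10 q of at least 5 (12.6% of coding genes) and 38 within 100 kb (54.5%). A stricter limit keeps fewer peaks and a wider window takes in more by construction. The ratio at the shared Aspscr1 site was 1.79, and 1.99 on the depth scale with an interval above 1. It could not be formed where 50% of both peaks had to overlap. The strong Aspscr1 peak was first among induced-only peaks away from gene ends by fold and by −log10 q, with a gene-end window of 500 bp or 2 kb, and with no untreated peak allowed within 500 bp, but at place 15 by summit fragments. In all, 38 of 50 alternative values kept their size or side. The tally includes IgG counts of 0, which a stricter limit cannot change. It also includes places of the peak for which Aspscr1 was chosen, so it does not measure stability. No paired analysis was possible because each group has 1 library. Depth limits the untreated list, where an induced peak of 6 fragments corresponds to 2.68, under the lowest listed number of 3.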
